A study of Mus musculus with 4 samples.

Results

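Long intergenic noncoding RNA (lincRNA) regions that span 5000 bases or more were examined in mouse hearts under pressure overload. Their probes carry, in place of a gene name, a mm9 chromosome range followed by the letter F or R, and a range was taken when its end minus its start was 5000 or more and was not a multiple of 25. This rule used only the names and no measured value. It gave 5135 probes in 1389 regions, out of 16181 range-named probes and 55681 non-control probes on the array. The regions lay on 20 chromosomes, from 24 on chromosome 19 to 100 on chromosome 1. Their median length was 18135 bases, with quartiles of 9436 and 37243, and 96 regions were 100000 bases or longer. F and R are read here as the plus and minus strand of the name, which the files do not explain. Of the 1050 spans, 339 were listed with both letters and 711 with a single letter, so that F gave 692 regions and R 697. The number of probes in a region ran from 1 in 215 regions, through 3 in 499 and 5 in 302, to 10 in 69 regions. Some ranges overlap, and joining those of the same letter left 1242 loci. Each of these probes had 1 spot, and none of the spots was saturated on any array.

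LincRNAs are transcripts without a long open reading frame that arise between protein-coding genes, often at low levels and with marked tissue preference. Several are known to act in the nucleus, where they bind proteins that regulate transcription, and others stem from promoters or enhancers that are active in the cell type. A range on the array marks a genomic interval in which such transcription was placed, not a defined transcript, so that probes of the same range may lie on different exons, isoforms or transcripts.

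RNA came from hearts of male mice 2 or 8 weeks after transverse aortic constriction (TAC), which narrows the aorta and loads the left ventricle, or after sham surgery. The methods describe C57BL/6J mice. By the labels the mice were 10 weeks old at the early time and 16 weeks old at the late one, although the methods put surgery at 12 weeks of age. RNA from 4 to 6 mice, 500 ng from each, was pooled for every condition, and each of the 4 pools was hybridized to 1 array, which left no biological replicate and no p-value. All 4 arrays were on 1 slide and in 1 scan. In bulk heart RNA, a change in the number of cells of a type and a change in RNA per cell cannot be told apart.

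Genes of the hypertrophic response were checked against the labels. On the log2 scale, TAC exceeded sham by 1.84 at 2 weeks and 2.65 at 8 weeks for Nppa, the atrial natriuretic peptide gene, and by 2.71 and 3.69 for Myh7, the slow myosin heavy chain gene. All 6 cardiomyocyte markers were well above background on all 4 arrays, and their median log2 change was -0.17 at both times. All 4 fibroblast markers (Col1a1, Col3a1, Dcn, Postn) were also measured on every array, and their summed signal, in units of the 75th percentile, was 164.0 and 187.5 in the sham hearts and 207.3 and 251.7 in the TAC hearts. Dcn made up most of these sums, with 142.5 and 167.2 in the sham hearts. Its log2 changes were 0.18 and 0.28, while those of Postn were 2.29 and 2.92. The median log2 change of the fibroblast markers was 0.97 at both times. The macrophage markers Csf1r and Emr1 had medians of 0.37 and 0.36. Of 3 atrial markers, Myl4 was measured on all 4 arrays, with -0.01 at 2 weeks and -0.52 at 8 weeks. Myl7 was measured on 2 arrays and Sln on 3. The relative signal of each atrial marker was highest in 8-week sham hearts, at 3.85 for Myl4, 0.170 for Myl7 and 0.120 for Sln. The part of such shifts between cell types in the region results was not tested. The lung genes Sftpc and Sftpa1, the skeletal muscle genes Myh4 and Myh1 and the brown fat gene Ucp1 were not well above background on any array. The remaining genes of these lists were measured on all 4, at relative signals of 0.110 to 0.146 for Scgb1a1 (lung), 0.0863 to 0.150 for Tnnt3 (skeletal muscle) and 35.4 to 47.6 for Cidea (brown fat).

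Detection was examined first. A probe was called measured on an array when the scanner software flagged its spot as well above background there. Of the 5135 probes, 2025 (39.4%) were measured in sham hearts at 2 weeks, 2250 (43.8%) in TAC hearts at 2 weeks, 2160 (42.1%) in sham hearts at 8 weeks and 2151 (41.9%) in TAC hearts at 8 weeks. The share was lowest on the 2-week sham array and highest on the 2-week TAC array. All probes of the array moved the same way, from 54.7% on the former to 58.5% on the latter. On all 4 arrays 1853 (36.1%) of the long-region probes were measured, 2617 (51.0%) on none, and 665 (13%) on some. For comparison, 34.1% of the probes of ranges under 5000 bases were measured on all 4 arrays, 35.7% of those of ranges with lengths that are multiples of 25, and 59.6% of the 39500 probes not named by a range.

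**Figure D1:**
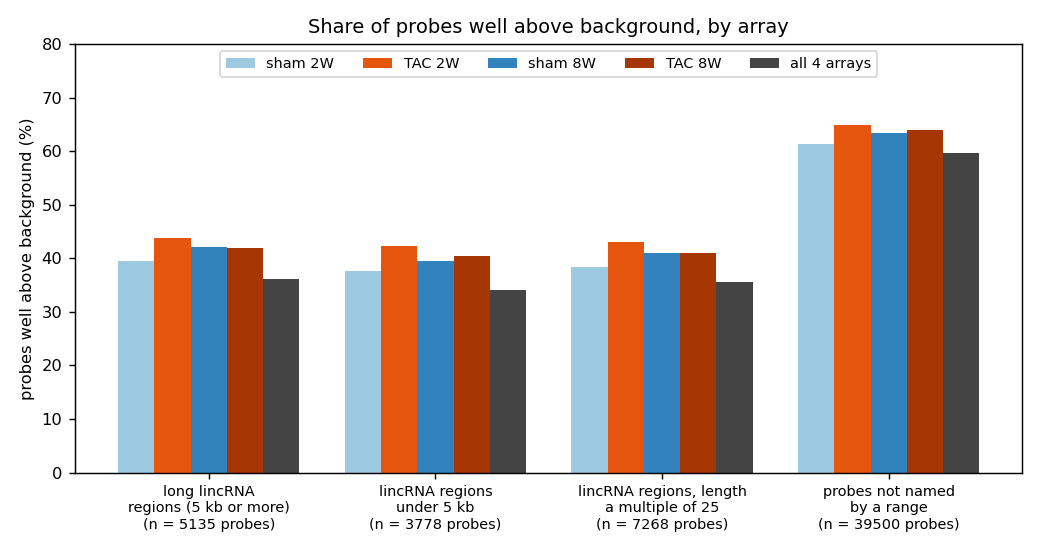
Share of probes flagged well above background (percent, axis from 0) on each array and on all 4 arrays, for long lincRNA regions, both other classes of lincRNA range and probes not named by a range. All 3 classes of range lie between 34.1% and 36.1% on all 4 arrays, below the 59.6% of the other probes.

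Detection changed little with the length of the region. The share of probes measured on all 4 arrays was 37.3% in regions of 5000 to 10000 bases, 36.4% up to 20000, 36.2% up to 50000, 33.9% up to 100000 and 34.1% beyond. By chromosome it ran from 23.0% on X (47 of 204 probes) to 46.6% on chromosome 17 (125 of 268). Probes listed as F were measured on all 4 arrays in 33.4% of cases (861 of 2580) and probes listed as R in 38.8% (992 of 2555).

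Detection within a region was then counted. Of the 1389 regions, 237 (17.1%) had every probe measured on all 4 arrays, 647 (46.6%) had some and 505 (36.4%) had none, and in 321 of these no probe was measured on any array. Regions with few probes weigh on these shares. Among the 1015 regions with 3 or more probes, 114 had every probe measured on all 4 arrays, 584 had some and 317 had none. At least 2 probes measured on all 4 arrays were found in 471 regions.

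The same span was often measured under both letters. Of the 339 spans listed with both, 184 had at least 1 probe measured on all 4 arrays under each letter, 61 under F only, 64 under R only and 30 under neither. A complete split was rare. In 5 of the 242 spans with 3 or more probes under each letter, every probe was measured under one letter and none under the other. In 11 of the 339 spans, every probe was measured under both.

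The length threshold cut through regions of varied detection. Just inside it, neither probe of chr1:139860777-139865792 (R, 5015 bases) was measured on any array, and 1 of 3 probes of chr1:183811267-183816309 (F, 5042 bases) was measured in 8-week TAC hearts only. Just outside it, 1 of 3 probes of chr16:30200995-30205965 (R, 4970 bases) was measured on all 4 arrays, as were all 3 probes of chr19:23064968-23069896 (F, 4928 bases). The longest range, chr7:39351858-46480344 (R, 7128486 bases), has 1 probe, which was not well above background on any array. The next longest spans 533971 bases.

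TAC was then set against sham at each time. Signals are given relative to the array's 75th percentile, and a probe counted as up or down when it was measured on both arrays of the pair and differed by more than 2-fold. At 2 weeks 1939 probes were measured on both arrays, of which 9 (0.464%) were up and 20 (1.03%) were down, beside 0.769% and 0.646% of all probes on the array. At 8 weeks 1981 probes were measured on both, of which 14 (0.707%) were up and 16 (0.808%) down, beside 1.42% and 1.0% of all probes. The balance at 8 weeks depends on the scaling. Rises made up 46.7% of the calls here and 60.0% after quantile normalization (18 up, 12 down). They made up 66.7% when arrays were centred on their median (18 and 9) and 78.1% without normalization (25 and 7). Normexp background correction, which is no change of scaling, left 3 rises and 0 falls. Its added offset of 50 draws the ratios of dim probes toward 0. At 2 weeks rises made up 31.0% of the calls, and 50% (3 and 3) after normexp.

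The sham arrays show how far 2 pools differed without TAC. By the labels these pools also differ in age and in time after surgery, unlike TAC and sham of the same time. Among 1918 probes measured on both, 5 were up and 13 down in 8-week sham over 2-week sham hearts, beside 0.394% and 0.344% of all probes. The SD of the log2 ratio over the region probes was 0.34 for TAC over sham at 2 weeks, 0.36 at 8 weeks and 0.30 between the sham pools. Within 1.5-fold of sham lay 93.1% of the measured region probes at 2 weeks and 90.2% at 8 weeks.

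Many calls came from probes near background. Of the 20 falls at 2 weeks 17 had a mean signal under 0.25, as did 5 of 9 rises, beside 45.8% of the region probes measured on both arrays. At 8 weeks 8 of 14 rises and 11 of 16 falls did, beside 48.5%. For repeated spots of a probe on the same array, the SD of the log2 ratio of any pair was 0.32 at such signals and 0.11 above them, and for the region probes the sham pools differed with an SD of 0.35 at such signals. The SD of the change at 8 weeks was 0.39 for 961 probes with a mean signal under 0.25 and 0.29 for 413 probes with a mean signal of 1 or more.

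Across the 1853 probes measured on all 4 arrays, 62.7% had the same sign at both times, and the log2 changes at 2 and 8 weeks had a Pearson r of 0.29 and a Spearman rho of 0.28. These values describe probes that share arrays and regions. For the 1028 probes with a mean signal of 0.25 or more the share was 67.8%, with r of 0.47 and rho of 0.44, and for the 825 below it was 56.2%, with r of 0.18. At both times 2 probes were up and 0 were down, beside 0.362% and 0.130% of all probes measured on all 4 arrays. At a 1.5-fold threshold 13 were up at both times, 20 down, and 4 moved in opposite directions. The shares over all probes at this threshold are not given here, so no trait of these regions is read from the counts.

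**Figure D2:**
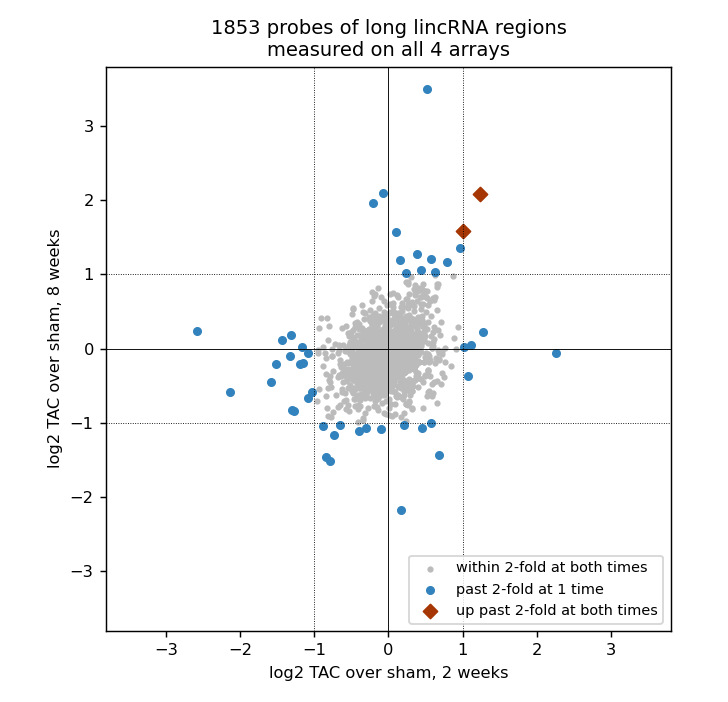
Log2 TAC over sham at 2 weeks (horizontal) and 8 weeks (vertical) for the 1853 probes of long lincRNA regions measured on all 4 arrays, with dotted lines at 2-fold. Red diamonds are the 2 probes up at both times, blue points the 45 past 2-fold at 1 time, and grey points the rest.

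The probes up at both times lie in different regions. A_30_P01032128, in chr11:53592946-53637922 (F, 44976 bases), had relative signals of 6.14 and 4.73 in the sham hearts at 2 and 8 weeks and of 14.4 and 20.0 in the TAC hearts, which gives 1.23 and 2.08 on the log2 scale. A_30_P01033231, in chr6:47595238-47601893 (R, 6655 bases), had 0.134 and 0.118 in sham and 0.269 and 0.353 in TAC hearts, or log2 changes of 1.0 and 1.58. Both TAC values lay above both sham values for either probe, which largely follows from their selection as up at both times. With quantile normalization, the array median or normexp, A_30_P01033231 no longer passed 2-fold at 2 weeks. The neighbours in the same range did not follow. A_30_P01020660, the only other probe of the chromosome 11 range measured on all arrays, had log2 changes of -0.42 and 0.03, and A_30_P01020534 on chromosome 6 had 0.11 and -0.19.

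The next largest rises by the smaller of both changes passed 2-fold at 8 weeks at most. A_30_P01018560, in chr8:57977383-57985712 (F), was above sham by 0.96 on the log2 scale at 2 weeks and by 1.36 at 8 weeks, while A_30_P01018867 of the same range had 0.01 and -0.16. A_30_P01017632, in chr17:95149413-95174473 (F), had 0.78 and 1.17, and A_30_P01032418, in chr14:55671783-55680316 (R), had 0.88 and 0.98. Among the falls chosen in the same way, A_30_P01025609, in chr10:84010161-84016083 (R), had -0.88 and -1.05. Its signal was 0.547 in 2-week sham, 0.298 in 2-week TAC, 0.307 in 8-week sham and 0.149 in 8-week TAC hearts, so that 8-week sham was also lower than 2-week sham, by -0.83 on the log2 scale. A_30_P01031785, in chr5:137392195-137426421 (R), had -1.29 and -0.83, and A_30_P01030698, in chr11:16831925-16851121 (R), had -0.82 and -0.91. The remaining pair belong to the ranges on chromosomes 13 and 17 described below.

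Probes of the same region were compared next. At 2 weeks 494 regions and at 8 weeks 497 had at least 2 probes measured on both arrays, and the change of a region was taken as the median over these probes. The probes of a region share the pool and the array and are no replicates. Their changes had an SD within regions of 0.29 at both times, beside 0.34 and 0.36 over all of these probes. The intraclass correlation, the share of the variance that lies between regions, was 0.28 at 2 weeks, 0.36 at 8 weeks and 0.15 for the sham pools. With only probes of mean signal 0.25 or more it was 0.37, 0.60 and 0.26. All measured probes had the same sign in 228 regions (46.2%) at 2 weeks, in 251 (50.5%) at 8 weeks and in 223 of 486 (45.9%) between the sham pools. The highest and the lowest probe of a region differed by a median of 0.33 at 2 weeks and 0.31 at 8 weeks on the log2 scale, and by more than 1 in 27 regions at each time.

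Few region medians passed 2-fold. At 2 weeks 1 region was up and 2 were down, beside 0.718% and 0.392% of all lincRNA ranges with 2 or more measured probes, and at 8 weeks 2 were up and 1 was down, beside 0.827% and 0.446%. No region passed in the same direction at both times, and between the sham pools 0 were up and 1 was down, beside 0.399% and 0.133%. The region up at 2 weeks was chr5:22890322-22939119 (R, 48797 bases), where A_30_P01028374 went from 0.0889 in sham to 0.200 in TAC hearts, A_30_P01021129 from 0.0903 to 0.192 and A_30_P01025339 from 0.152 to 0.168. None of these probes was well above background in 8-week sham hearts. The median log2 change was 1.09, with 0.15 for the other probe, and it was 0.37 after normexp. The overlapping range chr5:22905597-22939154 (R) has A_30_P01025008, which fell by 1.31 on the log2 scale at 2 weeks, and with overlapping ranges on that strand joined the median was -0.29 over 9 probes.

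After normexp neither region down at 2 weeks passed 2-fold. They were chr2:94008913-94019798 (R, 10885 bases), with a median of -1.16 over 3 probes, and chr6:99472981-99484210 (F, 11229 bases), with -1.03 over 2. In the former, A_30_P01032270 had relative signals of 0.310 in 2-week sham, 0.138 in 2-week TAC, 0.204 in 8-week sham and 0.207 in 8-week TAC hearts. At 8 weeks the median of the range was -0.09. In the latter, the probes were at -1.85 and -0.21, so that A_30_P01029435 alone carried the median past 2-fold.

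Both regions up at 8 weeks also rested on a single probe. In chr18:6144775-6202232 (F, 57457 bases), A_30_P01027832 had 0.105 in 2-week sham, 0.150 in 2-week TAC, 0.116 in 8-week sham and 1.31 in 8-week TAC hearts, a log2 change of 3.50 at 8 weeks. The other probe, A_30_P01027352, was at 0.34, and the median was 1.92. With the overlapping F range joined the median was 0.49 over 4 probes, and after normexp the median of the 2 probes was 0.98. In the chromosome 11 range, A_30_P01032128 (2.08) and A_30_P01020660 (0.03) gave a median of 1.06. Another region with probes far apart at 8 weeks was chr11:6421951-6429173 (F, 7222 bases), where A_30_P01029397 was at 2.10, with signals of 0.198, 0.188, 0.199 and 0.855, and the other measured probes at 0.49 and -0.44.

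**Figure D3:**
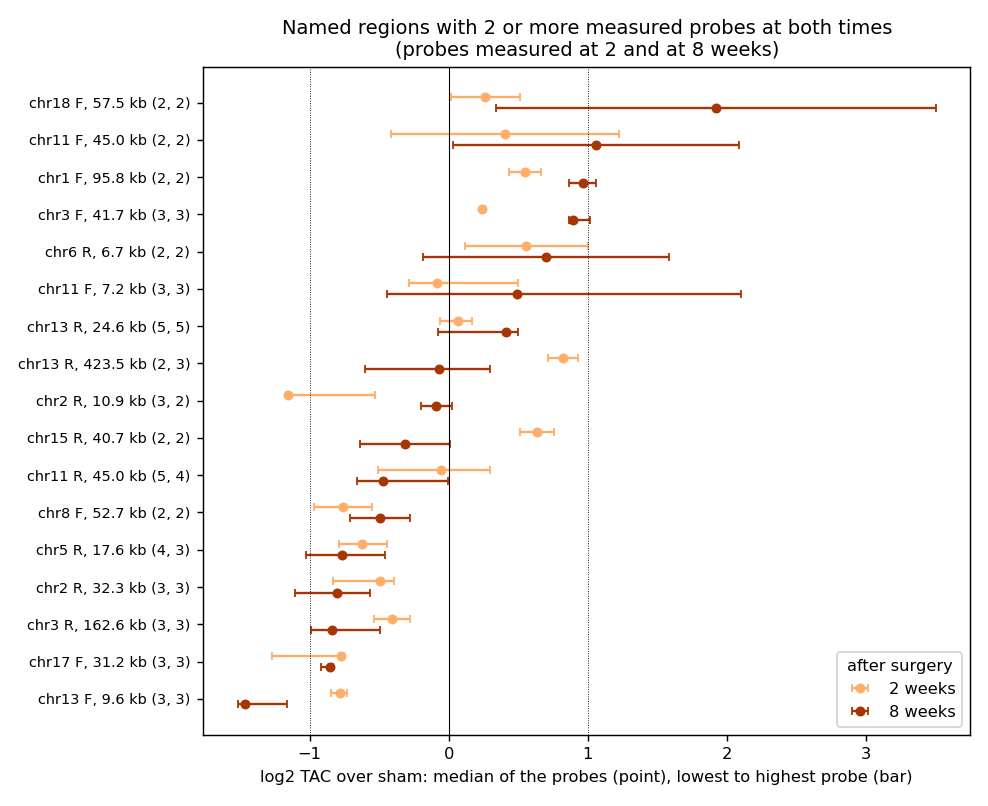
Median log2 TAC over sham (points) and lowest to highest probe (bars) at 2 and 8 weeks for the 17 named regions with 2 or more measured probes at both times, with the number of probes at each time in brackets and dotted lines at 2-fold. The bars of the chromosome 18 F and chromosome 11 F ranges at 8 weeks run from 0.34 to 3.50 and from 0.03 to 2.08, while those of the chromosome 13 F range lie wholly below -0.7 at both times.

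The region down at 8 weeks was chr13:113555055-113564665 (F, 9610 bases), and all 3 of its probes were below sham at both times. A_30_P01018871 had relative signals of 0.231 and 0.204 in the sham hearts at 2 and 8 weeks and of 0.139 and 0.0911 in the TAC hearts. A_30_P01025725 had 0.248 and 0.219 in sham and 0.144 and 0.0766 in TAC hearts, and A_30_P01027343 had 0.495 and 0.506 in sham and 0.275 and 0.184 in TAC hearts. In each probe both TAC values lay below both sham values, and the 8-week TAC value was the lowest. The range was named for its falls at both times, so this order largely follows from the selection. The share of all probes with such an order is not given here. The median log2 change was -0.78 at 2 weeks, with probes from -0.85 to -0.73, and -1.46 at 8 weeks, with probes from -1.52 to -1.16. The median between the sham pools was -0.18. After normexp with an added offset the medians were -0.29 and -0.58.

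A second range with 3 of 3 probes below sham at both times was chr17:29571806-29603008 (F, 31202 bases). A_30_P01024059 had 0.307 and 0.286 in the sham hearts and 0.127 and 0.160 in the TAC hearts, A_30_P01027519 had 0.484 and 0.533 against 0.288 and 0.295, and A_30_P01030222 had 0.596 and 0.640 against 0.349 and 0.338. Sham and TAC values did not overlap in any of these probes. This range too was named for its falls at both times, so the lack of overlap largely follows from the selection. How many of all probes lack such overlap is not given here either. The medians, -0.77 at 2 weeks and -0.85 at 8 weeks, did not pass 2-fold, and the sham pools differed by 0.10.

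The count of such regions was taken after the values had been seen. Of 265 regions with 3 or more probes measured on all 4 arrays, 12 (4.53%) had every such probe above sham at both times and 52 (19.6%) had every one below. Over all lincRNA ranges, these shares were 5.94% and 16.0% of 774. Without normalization, which moves the median 8-week change of all measured probes from -0.04 to 0.13, the counts were 18 (6.79%) and 23 (8.68%). Over all lincRNA ranges the shares were then 8.91% above and 7.11% below. A median past 1.5-fold at both times was found for 3 of the 265, all below sham, and for 8 above and 5 below among all lincRNA ranges. These 3 were the ranges on chromosomes 13 and 17 and chr5:122982442-123000053 (R, 17611 bases). In the last, A_30_P01029193 had 0.446 and 0.411 in sham and 0.328 and 0.242 in TAC hearts, and the median over its 3 probes measured on all arrays was -0.65 at 2 weeks and -0.77 at 8 weeks. They stayed the same 3 under quantile, median and no normalization. None was left after normexp, whose offset draws the ratios of dim probes toward 0.

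Smaller shifts shared by several probes were found in both directions. On chromosome 3, chr3:127037711-127111912 (R) and chr3:127039311-127201919 (R) overlap, and all 6 of their probes were below sham at both times, with a median of -0.39 at 2 weeks and -0.76 at 8 weeks. In A_30_P01026400 the signal was 1.60 in 2-week sham, 1.21 in 2-week TAC, 1.39 in 8-week sham and 0.697 in 8-week TAC hearts. All 6 were also lower in 8-week than in 2-week sham hearts, with a median of -0.36. In chr2:176874642-176906929 (R, 32287 bases), the 3 probes had medians of -0.50 and -0.80. In chr17:22076711-22099431 (R, 22720 bases) they had -0.63 and -0.33. Joined with an overlapping R range, whose measured probe was at 0.09 at 2 weeks, the medians were -0.55 and -0.22 over 4 probes.

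Above sham, all 5 probes of chr7:128341797-128414692 (R, 72895 bases) were measured on all arrays. A_30_P01026095 had relative signals of 1.96 and 2.23 in the sham hearts and of 2.71 and 4.08 in the TAC hearts. The log2 changes of the 5 probes lay between 0.35 and 0.65 at 2 weeks and between 0.79 and 1.03 at 8 weeks, while 8-week sham exceeded 2-week sham by 0.15 to 0.34. On chromosome 15, chr15:32167516-32174417 and chr15:32167516-32174427 (both R) are nearly the same range with different probes, 9 of 10 of which were measured on all arrays. Their median change was 0.44 at 2 weeks and 0.70 at 8 weeks, and all 9 lay above sham at both times, between 0.32 and 0.77. In 8-week against 2-week sham hearts all 9 were lower, by a median of -0.14.

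On chromosome 18, chr18:6144775-6202105 and chr18:6144775-6202232 (both R) overlap, and 6 of their 9 probes were measured on all arrays. In A_30_P01032370 the signal was 14.9 and 14.5 in sham hearts and 20.4 and 25.2 in TAC hearts, and the median over the 6 was 0.48 at 2 weeks and 0.75 at 8 weeks, with a range of 0.68 to 0.80 at 8 weeks. In chr3:146515333-146557069 (F, 41736 bases), the 3 probes had a median of 0.24 at 2 weeks and 0.90 at 8 weeks. A_30_P01022868 in that range had 1.69 and 1.43 in sham and 1.99 and 2.65 in TAC hearts. In chr1:33965074-34060850 (F, 95776 bases), 2 of 3 probes were measured on all arrays, with medians of 0.55 and 0.96.

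**Figure D4:**
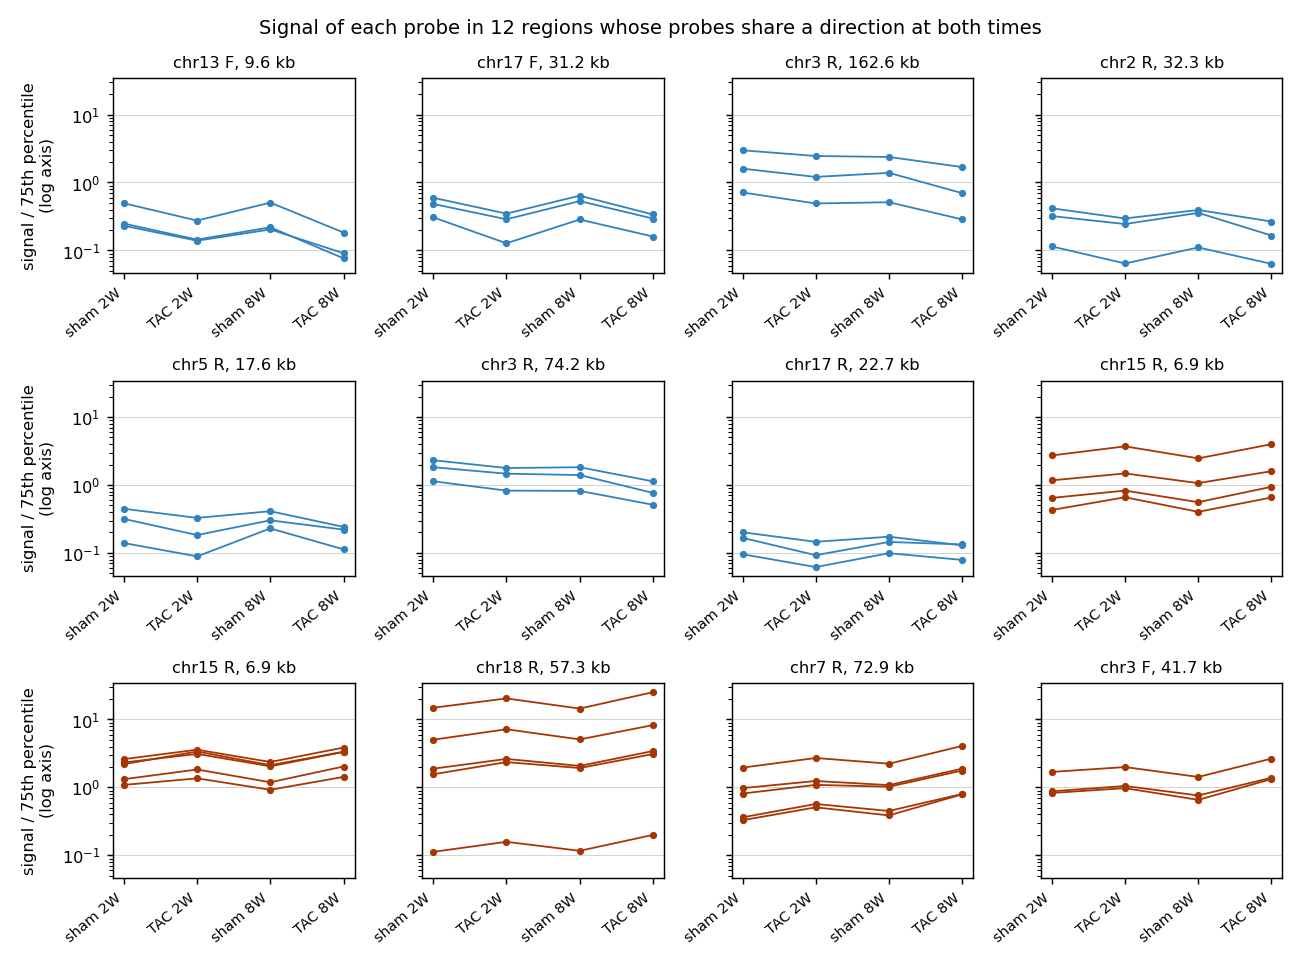
Signal relative to the 75th percentile of the array (log axis) of each probe measured on all 4 arrays, for the 12 regions whose probes share a direction at both times and whose median passed 1.5-fold at 1 time or more; lines join the values of the same probe. The 7 regions below sham (blue) include the chromosome 13 F range, with its lowest values in 8-week TAC hearts, and the 5 above sham (red) include the range on chromosome 7.

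Some other large medians at 2 weeks were nearer 0 or of opposite sign at 8 weeks. That of chr6:47595238-47601893 (R) was not, at 0.56 and 0.70 over 2 probes, which lay at 1.58 and -0.19 at 8 weeks. Regions with medians of 0.82 over 2 probes, in chr13:28551902-28975446 (R, 423544 bases), and of 0.63 over 2 probes, in chr15:66682293-66722977 (R, 40684 bases), were at -0.07 and -0.31 at 8 weeks. In chr8:89996710-90049453 (F, 52743 bases) the median was -0.76 at 2 weeks and -0.50 at 8 weeks over 2 probes.

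Several calls at 2 weeks came from a single array, as seen after the values were known. In 10 of the 20 falls 2-week sham lay more than 2-fold above all 3 other arrays, as in 44.6% of the falls of all probes, and in 6 of the 9 rises 2-week TAC did, beside 14.8% of the rises of all probes. A_30_P01024706, in chr1:175660642-175671878 (R), had 2.00 in 2-week sham hearts and 0.335, 0.305 and 0.359 on the other arrays, while A_30_P01030969 of the same range had 2.52, 2.48, 2.07 and 2.29. A_30_P01027836, in chr18:75131739-75144870 (F), had 0.772 in 2-week TAC hearts and 0.162, 0.154 and 0.148 elsewhere. At 8 weeks TAC stood above all other arrays in 4 of 14 rises, and sham in 1 of 16 falls, beside 23.9% and 20.7% of the rises and falls of all probes.

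Among the falls at 8 weeks, 3 probes lay within neighbouring ranges of chromosome X and were singled out after their values were seen. A_30_P01027114, in chrX:120353972-120361170 (R), went from 0.242 in sham to 0.106 in TAC hearts, A_30_P01021568, in chrX:120590872-120598071 (R), from 0.198 to 0.0676, and A_30_P01023002, in chrX:120812236-121038407 (R), from 0.235 to 0.0815. Their log2 changes were -1.19, -1.55 and -1.53. At 2 weeks they were measured in TAC hearts, at 0.170, 0.125 and 0.131, and were not well above background in sham hearts, so that 2-week sham and 8-week TAC were the low arrays. Whether these probes read separate transcripts was not tested.

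The change under the letters F and R of the same span was compared where both had a probe measured on both arrays. At 2 weeks this held for 190 spans, of which 57.4% had the same sign under both letters, and at 8 weeks for 198, of which 62.6% did. The medians differed by 0.21 and 0.20 at the middle of the spans, and by more than 1 in 5 and 7 spans. Pearson r between the letters was 0.04 at 2 weeks and 0.21 at 8 weeks, over spans that share the pools and arrays. At 8 weeks both medians were below 0 in 106 spans and above 0 in 18, with 71.2% of the F and 73.2% of the R medians below 0. This split depends on the scaling. Without normalization, which moves the median of the measured region probes from -0.10 to 0.06, both were below 0 in 38 spans and above 0 in 81, and 60.1% had the same sign.

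The largest differences between letters at 8 weeks followed single probes. In chr11:53592946-53637922 the median was 1.06 over 2 probes under F and -0.48 over 4 under R, where A_30_P01030240 had 0.287 and 0.279 in sham and 0.219 and 0.181 in TAC hearts. In chr13:34693404-34717987 it was -0.79 for 1 probe under F and 0.41 over 5 under R. In chr18:6144775-6202232 both were above 0, at 1.92 under F and 0.87 under R.

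**Figure D5:**
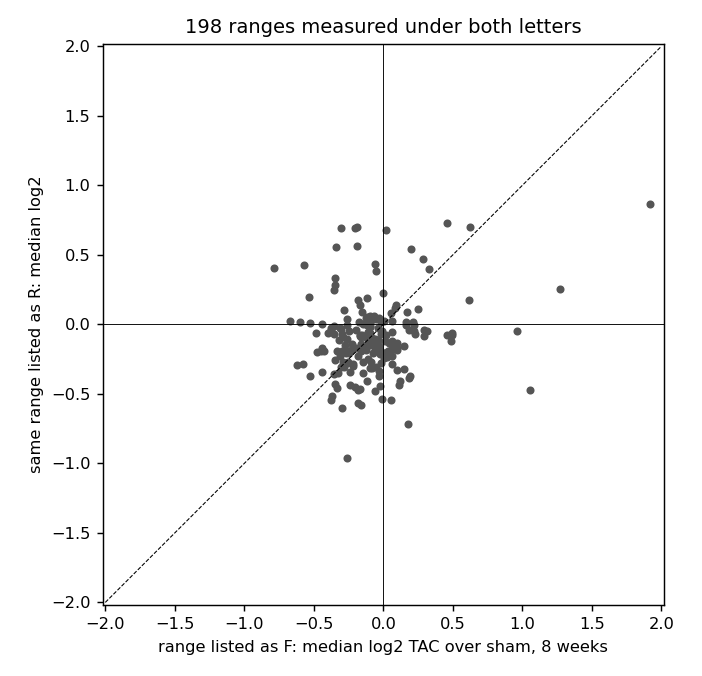
Median log2 TAC over sham at 8 weeks for the 198 spans measured under both letters, with F on the horizontal and R on the vertical axis and a dashed line of equality. Both medians lie below 0 in 106 spans (38 without normalization), and the points far from the line include the chromosome 11 span with 1.06 under F and -0.48 under R.

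Probes measured under TAC or sham only were taken as bounds. Both TAC arrays and neither sham array measured 56 probes (1.09%), beside 0.964% of all probes, and both sham arrays and neither TAC array measured 9 (0.175%), beside 0.160%. The brighter side was set against the dim probe's own value or the faintest signal flagged well above background on the dim array, whichever was higher, and the bound passed 2-fold at both times for 4 of the 56 and 1 of the 9. The matching shares over all probes at both times are not given here. A_30_P01025570, in chr5:137392195-137426421 (F), was at least 2.93-fold higher after TAC than after sham at the early time and at least 4.58-fold at the late one, with relative signals of 0.176 and 0.247 in TAC hearts. The 4 probes of that range measured on both arrays had medians of 0.30 and 0.12. Under R, the same span holds A_30_P01031785, which had log2 changes of -1.29 and -0.83. A_30_P01029896, in chr6:52046805-52072744 (F), was at least 2.89-fold and 2.45-fold higher, while A_30_P01019947, the probe of that range measured on all arrays, had log2 changes of -0.03 and -0.17. A_30_P01027687, in chr6:40699474-40719122 (F), was at least 2.10-fold and 3.79-fold higher, and A_30_P01021982, the other probe of that range, was also measured on both TAC arrays and neither sham array. At 2 weeks 311 probes (6.06%) were measured in TAC only and 86 (1.67%) in sham only, beside 4.85% and 1.02% of all probes. At 8 weeks the counts were 170 (3.31%) and 179 (3.49%), beside 2.74% and 2.24%. Bounds past 2-fold at 2 weeks were found for 19 of those in TAC only (6.11%) and 34 of those in sham only (39.5%), beside 6.71% and 43.1% over all probes. At 8 weeks they were found for 37 (21.8%) and 54 (30.2%), beside 19.7% and 29.3%.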

How the data were processed

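Total RNA pools of sham and TAC hearts were read on 4 Agilent SurePrint G3 mouse arrays, 1 per condition. The authors deposited scanner output of Feature Extraction 10.7.3.1 per the file headers (9.1 per the labels). Its processed signal is a spot's intensity after background subtraction and detrending, with no step that makes arrays comparable. The deposited value table holds the same intensity times a constant per array, between 3.52 and 4.35, with column medians of 97.2 to 106.3, on a linear scale, and what the constant stands for is not given in the sources used here. Precision is limited by the number of arrays, and the spread between mice is unknown.

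From these files, spots of a probe were averaged as log2 intensity, without outlier spots, and the array's 75th percentile over 55681 probes (206.0 to 248.5) was subtracted. A probe was measured where flagged well above background, and a region was summarised over at least 2 such probes. With 1 array a group, no test was run. Spot noise was taken from 399 probes with 10 spots. Named regions were the 5 largest median rises and falls at each time, the 5 largest probe rises and falls at both times, the 3 largest differences between probes and between letters, the nearest to the length threshold, the longest, and up to 3 probes measured after TAC only. Members, lists and rules were chosen with earlier results of these data known. Gene names of check genes came from RefSeq accessions (GRCm38.p6), which matched 26576 of 39500 probes. The ranges are on mm9 and were not converted, so no sequence, neighbouring gene or annotation is given. A further 13 probes in 3 ranges without a letter were not used. Alternatives were other normalizations, the deposited table, normexp background correction (limma 3.58.1, R 4.3.3; offset 50), other filters on dim probes, outlier spots kept, folds of 1.5 and 3, and other rules for regions. Python 3.11.15, pandas 2.3.3, numpy 2.4.6, scipy 1.17.1 and matplotlib 3.10.9 were used.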

Additional observations from a re-analysis of the deposited data

How the results depend on the processing

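Counts are given in the order rises and falls at 2 weeks, rises and falls at 8 weeks, rises and falls at both times, beside 9, 20, 14, 16, 2 and 0 probes and 1, 2, 2, 1, 0 and 0 regions. For probes, requiring well above background on the brighter array only gave 106, 76, 83, 113, 13 and 3, positive and significant on both arrays gave 145, 129, 90, 206, 14 and 18, and no filter gave 262, 239, 188, 397, 33 and 35. A 1.5-fold threshold gave 54, 80, 73, 121, 13 and 20, and a 3-fold threshold 1, 5, 4, 1, 0 and 0. These counts show how the settings move the calls and come without shares over all probes. Normexp gave 3, 3, 3, 0, 1 and 0. Without normalization there were 25 rises and 7 falls at 8 weeks, and with the array median 9 falls at 8 weeks. Quantile normalization and the array median each left 1 probe up at both times. The deposited table and keeping outlier spots left every probe count within 1.5 times the value reported.

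For regions, the filter on the brighter array only gave 13, 9, 16, 18, 4 and 0, and normexp gave 0, 0, 1, 0, 0 and 0. Without normalization 5 regions were up at 8 weeks. With at least 3 measured probes there were 1 fall at 2 weeks and 0 rises at 8 weeks, with the mean over probes 0 rises at 2 weeks, and with overlapping ranges joined 0 rises at 2 weeks and 1 at 8 weeks. Quantile normalization left all region counts within 1.5 times. Of 163 single changes of named regions and probes, normexp moved 117 past the spread of repeated spots (SD 0.171, log2), and none past 2-fold changed sign. The offset that normexp adds draws the ratios of dim probes toward 0, so a call lost among dim probes is no check of that call. How many of the 117 moved through the offset was not tested. The other settings run on the 163 changes moved none past that spread. Leaving out normalization shifts every 8-week change alike by 0.168, just under the 0.171 used as the limit. Centring on the array median and using the deposited table also shift all changes of a time alike. For each of these settings the count is fixed by the array constants and is no check of single changes.

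No paired analysis was possible because each group has 1 array. For the same reason no array could be left out. The number of arrays limits the precision, and partly detected regions have fewer probes to set against each other. Signal over background limits probes under 0.25 of the 75th percentile, where repeated spots differ more than at higher signals.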
